A study of Drosophila melanogaster with 4 samples.

Results

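The genes described here are 52 *Drosophila* genes of the cell cycle and of DNA replication, named by symbol and measured among 13909 genes in RNA-seq of cultured cells. All 52 were found in the annotation and all 52 passed the filter on low counts, which kept 8182 genes for testing. They were split by textbook role into 16 replication genes, 10 genes of G1 and S-phase entry, 9 genes of mitotic entry, 14 mitosis genes and 3 checkpoint kinases. The lowest count of any of them in any library was 132, so no value lies near the detection floor.

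Duplication of the genome begins when the origin recognition complex (ORC) binds origins and, with *Cdc6* and the *Drosophila* Cdt1 protein encoded by *dup*, loads the MCM helicase before S phase. Cyclin E with Cdk2 starts S phase, the E2F and Dp factors activate many replication genes, and the retinoblastoma proteins Rbf and Rbf2 restrain them. Cyclins A, B and B3 with Cdk1 drive mitosis, and the anaphase-promoting complex (APC/C), guided by the activators encoded by *fzy* and *fzr*, destroys them so that cells can divide and return to G1.

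The cells were S2R+, a line derived from late embryonic stages of *Drosophila melanogaster*. In the enhancer mutant, CRISPR-Cas9 had removed the intronic enhancer of the receptor gene *Notch*, and the question asked of the RNA-seq was how this deletion affected gene expression. Total RNA from wild-type cells and from the mutant gave 2 libraries per condition. The mutant cells were transfected with Cas9 and guide plasmids, selected with puromycin and grown as a homozygous clone isolated by serial dilution. S2R+ cells are tetraploid, and the authors could not exclude small insertions or deletions that differ between alleles at the junction. The control cells are described only as wild-type S2R+ cells. Both conditions were cultured in the same medium at the same temperature. Deletion of the enhancer and passage through selection and cloning cannot be told apart in these libraries, since no unedited clone was analysed here. The labels do not say whether the 2 libraries of a condition came from separate cultures, so p-values measure only the spread between these libraries.

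Depth was 16240543 to 19410313 estimated counts in wild-type and 24880286 to 29605002 in the mutant. *Notch* (annotated as *N*), the gene whose enhancer was deleted, was lower in both mutant libraries, with 160.1 and 126.0 CPM (counts scaled to library size) in wild-type and 38.1 and 35.3 CPM in the mutant (log2 fold change -1.96 ± 0.13 SE, adjusted p = 9.46e-07, edgeR). Of 8 markers listed for S2R+ cells, *srp*, *ush* and *Pxn* were expressed in every library, whereas the phagocytic receptors *NimC1* and *NimC2* had at most 3 counts in any library and *eater* had 1 to 22. The summed level of the 8 markers was 154.4 and 140.5 TPM (transcript abundance corrected for length and scaled to the same sum in every library) in wild-type and 109.8 and 94.3 TPM in the mutant, on a scale where the median of all tested genes shifted by -0.43 (log2). On counts, 2 of the 5 markers tested were called lower. These were *Hml*, with a log2 fold change of -1.79 (adjusted p = 0.000276, edgeR), and *fz*, with one of -1.91 (adjusted p = 6.81e-05, edgeR). *Pxn* had a log2 fold change of 0.39 (adjusted p = 0.00677, edgeR). The values of *srp* and *ush*, -0.10 and -0.25, did not pass the test. Among markers listed for other cell types, *tj* of ovarian somatic cells (13 and 7 counts in wild-type, 51 and 34 in the mutant) and *tra* of the female pathway were called higher. The other ovarian markers did not rise, with *fs(1)Yb* at -0.02 and *bond* at 4 and 1 counts in wild-type and 0 in the mutant. *Sxl*, also of the female pathway, had a value of 0.08 that did not pass the test. Of male dosage compensation, *msl-2*, *mle* and *mof* had values of -0.40, -0.03 and -0.19, and none was called. *elav* of neurons (-0.33, adjusted p = 0.0184, edgeR) and *Mef2* of muscle (-0.16) were expressed in every library without being called. The other neuronal markers were low, with 9 to 19 counts for *nSyb*, 0 to 9 for *Syt1* and 0 to 4 for *brp*. So were the other muscle markers, with 0 to 2 counts for *Mhc* and 2 to 6 for *up*. The part of these shifts in the results was not tested.

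Adjusted p values come from the quasi-likelihood test of edgeR and were adjusted by the Benjamini-Hochberg method over all 8182 tested genes. A gene was called when its adjusted p was below 0.05 and its log2 fold change was at least 0.5 in either direction. Values in CPM were normalized with TMM factors. Under this rule, 10 of the 52 genes were called lower in the mutant (19.2%) and 0 were called higher, against 15.3% of all tested genes called lower and 12.6% called higher. The 10 genes were the MCM subunits *dpa* (Mcm4), *Mcm5* and *Mcm7*, the ORC subunits *Orc1*, *Orc2* and *Orc5*, the licensing factor *dup*, the retinoblastoma gene *Rbf*, the Cdc25-type phosphatase *twe* and the APC/C activator *fzr*. Without mutant replicate 2 the count fell to 6, all of them among the 10. DESeq2 called 10 genes as well, 8 lower, which were among the 10, and 2 higher, against 11.1% and 11.5% of all genes it tested. At an unadjusted p below 0.05 in edgeR's test, 24 of the 52 genes were lower and 7 higher, against 27.5% and 28.0% of all tested genes.

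With the adjusted p alone, 23 of the 52 were lower and 5 higher, against 24.2% and 24.5% of all tested genes. In 28 of the 52 genes the mutant libraries were both under the lower wild-type library, and in 10 both were over the higher one, against 37.9% and 37.7% of all tested genes. The median log2 fold change was -0.11, with a range from -0.80 to 0.50, beside a median of -0.0037 over all tested genes. In bulk RNA, fewer cells in a phase of the cycle and less RNA of that phase per cell cannot be told apart.

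**Figure D1:**
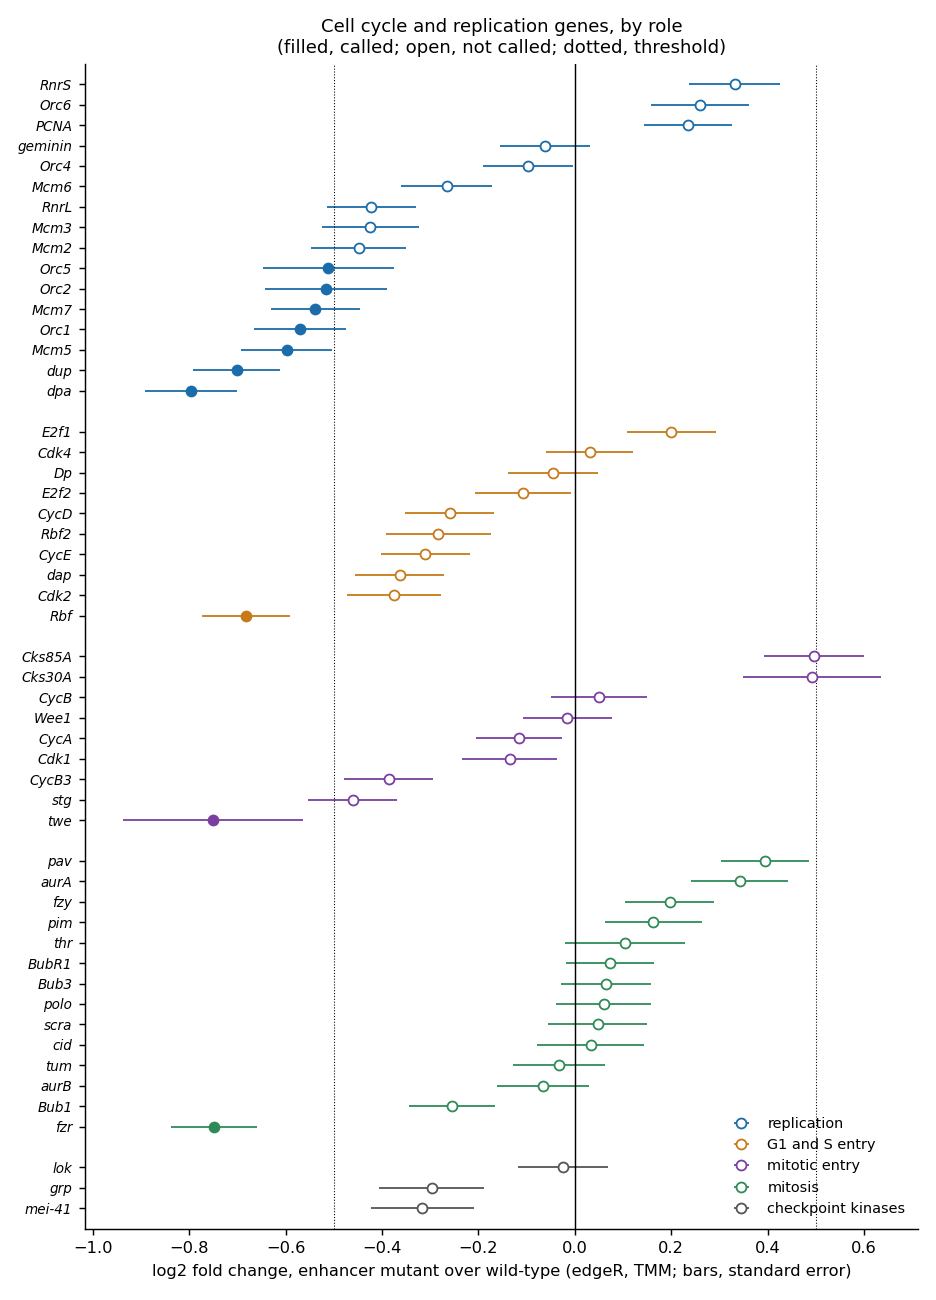
The log2 fold change of each of the 52 genes, mutant over wild-type, on the horizontal axis, grouped by role, with its standard error as a bar and the 0.5 threshold as dotted lines. Filled points are the 10 called genes, 7 of which are replication genes with values from -0.80 to -0.51. The mitosis genes lie between -0.26 and 0.39 except for *fzr* at -0.75.

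The replication genes held 7 of the 10 called genes. Of 16, 7 were called lower (43.8%) and 0 higher, beside 15.3% and 12.6% of all tested genes. In 13 of them the log2 fold change was below 0, and the group median was -0.44. DESeq2 called 5 lower and 0 higher (11.1% and 11.5% of all genes), and at an unadjusted p below 0.05 in edgeR's test 11 were lower and 3 higher (27.5% and 28.0% of all genes). Without any overlap of the conditions, 12 of the 16 genes were at lower levels in the mutant and 3 at higher levels (37.9% and 37.7% of all genes). The median of the 16 genes relative to the wild-type mean was -0.041 and 0.041 on the log2 scale in the wild-type libraries, -0.38 in mutant library 1 and -0.52 in mutant library 2. The count of called replication genes fell from 7 to 4 without wild-type replicate 2, and likewise to 4 without mutant replicate 2.

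Of the 6 subunits of the MCM helicase, the ring that unwinds DNA ahead of the polymerases, 3 were called lower and all 6 had an adjusted p below 0.05. Of all tested genes, 15.3% were called lower and 24.2% were lower with the adjusted p alone. The largest change was that of *dpa*, the Mcm4 subunit (chromosome 2R, 7496702 to 7500145 in dm6). It had 298.5 and 316.3 CPM in wild-type and 186.0 and 167.7 CPM in the mutant. The mutant libraries were both well below the wild-type ones, with a log2 fold change of -0.80 ± 0.10 SE (adjusted p = 9.13e-05, edgeR). *Mcm5* (3R, 10788524 to 10791150) had 151.3 and 164.6 CPM in wild-type and 107.1 and 101.5 CPM in the mutant, and *Mcm7* (3L, 8891596 to 8894310) had 142.7 and 149.6 CPM and then 103.7 and 97.5 CPM. In neither gene did the conditions overlap, and the log2 fold changes were -0.60 ± 0.09 SE for *Mcm5* (adjusted p = 0.000535, edgeR) and -0.54 ± 0.09 SE for *Mcm7* (adjusted p = 0.000927, edgeR). The call of *Mcm7* was lost without wild-type replicate 2 (-0.49), without mutant replicate 2 (-0.48) and without the filter on low counts. The other 3 subunits, *Mcm2*, *Mcm3* and *Mcm6*, had values of -0.45, -0.42 and -0.27. Their adjusted p values were 0.00376, 0.00538 and 0.0388 in edgeR's test, but their changes were too small to be called.

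Of the 6 subunits of ORC, which marks the origins, 3 were called lower (15.3% of all tested genes) and 5 had values below 0. *Orc1* (2R, 7522437 to 7525716), the largest subunit, had 128.2 and 140.1 CPM in wild-type and 91.1 and 89.6 CPM in the mutant. The libraries of each condition were close to each other and the conditions did not overlap, with a log2 fold change of -0.57 ± 0.10 SE (adjusted p = 0.000761, edgeR). *Orc2* (3R, 13964885 to 13967075) had 17.2 and 16.3 CPM in wild-type and 12.1 and 11.2 CPM in the mutant, and *Orc5* (2L, 13829837 to 13831576) had 14.1 and 15.9 CPM and then 10.7 and 10.2 CPM. Both were among the least abundant replication transcripts, and both lay just past the threshold, at -0.52 ± 0.13 SE (adjusted p = 0.00674, edgeR) and -0.51 ± 0.14 SE (adjusted p = 0.0100, edgeR). The calls of *Orc2* and *Orc5* were lost with DESeq2, where both rounded to -0.50 but were short of the fold threshold (adjusted p = 0.0377 and 0.0520), and without the filter on low counts (-0.47 each). The calls also depended on single libraries. *Orc1* was no longer called without wild-type replicate 2 (-0.49), *Orc2* without wild-type replicate 1 (-0.47) or mutant replicate 2 (-0.45), and *Orc5* without wild-type replicate 2 (-0.41), mutant replicate 1 (-0.53, adjusted p = 0.0524) or mutant replicate 2 (-0.47). *Orc4* had a value of -0.10 and *Orc6* one of 0.26, and neither passed the test. *Orc3*, which is not among the 52, had a value of -0.44.

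Among the licensing factors, *dup* (2R, 15376619 to 15380988), which brings the helicase to ORC, had 189.1 and 200.2 CPM in wild-type and 121.6 and 117.9 CPM in the mutant. The mutant libraries were lower by far more than the replicates differed, with a log2 fold change of -0.70 ± 0.09 SE (adjusted p = 0.000143, edgeR). *geminin*, whose product inhibits the dup protein, had overlapping values, with 201.5 and 188.0 CPM in wild-type and 177.2 and 196.1 CPM in the mutant.

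The sliding clamp and the enzymes of nucleotide supply gave other values. *PCNA*, the clamp that holds polymerases on DNA, was the most abundant gene of all 52 by TPM (468 in wild-type, mean of n = 2). It had 360.9 and 353.2 CPM in wild-type and 412.2 and 428.1 CPM in the mutant. Its mutant libraries were both above the wild-type ones, but the difference did not pass the test (log2 fold change 0.23 ± 0.09 SE, adjusted p = 0.0537, edgeR). The subunits of ribonucleotide reductase, which makes deoxynucleotides, had values of opposite sign. The large subunit *RnrL* had a value of -0.42 (adjusted p = 0.00359, edgeR) and the small subunit *RnrS* one of 0.33 (adjusted p = 0.0140, edgeR), both short of the fold threshold. On the TPM scale, where the median of all tested genes was -0.43, the differences of *PCNA* and *RnrS* were -0.19 and -0.11.

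**Figure D2:**
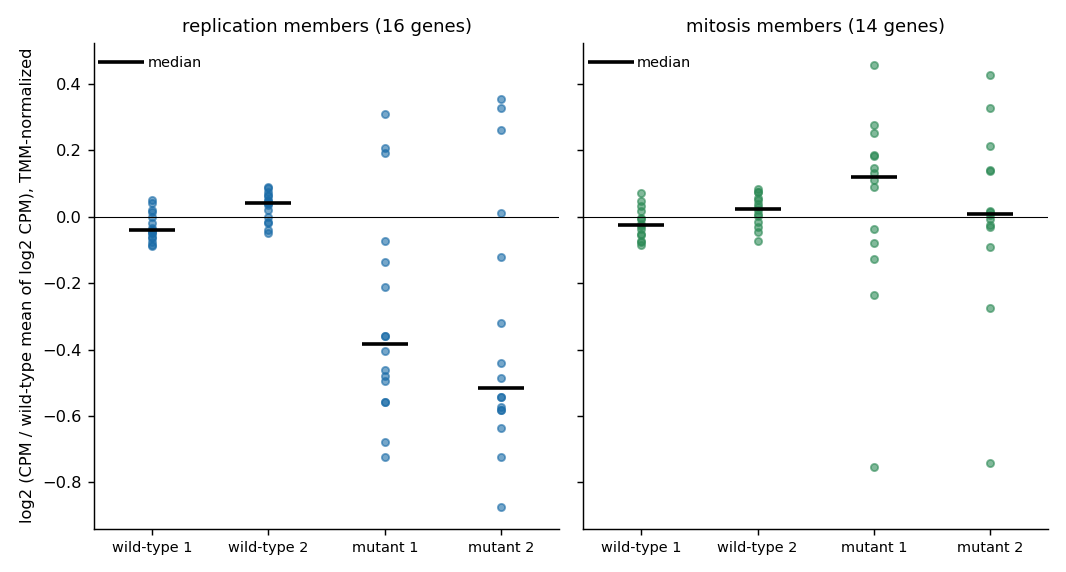
Each point is a gene in a library, as log2 of its TMM-normalized CPM over its wild-type mean, for the 16 replication genes and the 14 mitosis genes, with the median of the library as a bar. The replication medians are -0.38 and -0.52 in the mutant libraries, and the mitosis medians are 0.12 and 0.0088.

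A further list of 31 replication genes outside the 52 was examined. Of these, 6 were called lower (19.4%, against 15.3% of all tested genes) and the median was -0.22. DESeq2 called 4 lower and 1 higher (*Claspin*, 0.51), against 11.1% and 11.5% of all genes. With the adjusted p alone in edgeR's test, 13 were lower and 5 higher, against 24.2% and 24.5%, and the 5 were *Claspin* (0.50), *Ts* (0.43), *dUTPase* (0.35), *RfC3* (0.27) and *RPA3* (0.25), of which *dUTPase*, *RfC3* and *RPA3* had TPM values lower in the mutant (log2 -0.05, -0.16 and -0.10). Without wild-type replicate 2 the called genes numbered 3 in place of 6. *Cdc6*, the ATPase that works with ORC in loading the helicase, was the lowest of the 31. It had 34.6 and 38.8 CPM in wild-type and 19.1 and 18.8 CPM in the mutant, with no overlap (log2 fold change -0.95 ± 0.10 SE, adjusted p = 4.64e-05, edgeR). *Prim2*, the large primase subunit, had 60.2 and 68.1 CPM in wild-type and 38.7 and 40.8 CPM in the mutant, again with no overlap (-0.69 ± 0.10 SE, adjusted p = 0.00024, edgeR).

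Replication genes of both lists were then sorted by complex. This grouping was made after the values were seen and carries no test. Of 7 subunits of the replicative DNA polymerases and primase, 4 were called lower (*Prim2*, *PolA2*, *PolE2* and *PolD1*), all 7 were below 0 and the median was -0.50. Of all tested genes, 15.3% were called lower. DESeq2 called 2 of the 7, *PolE2* and *PolD1* having values of -0.49 there. Leaving out 1 library at a time kept *Prim2* called in each of the 4 fits, *PolA2* in 3 (highest value -0.42), *PolE2* in 2 (-0.44) and *PolD1* in 2 (-0.38). The MCM set had a median of -0.49 and ORC one of -0.48. The 3 subunits of RPA, which coats single-stranded DNA, had a median of 0.07, the 4 GINS subunits one of 0.01, and the 5 genes of the clamp and its loader one of 0.01. The 4 genes of nucleotide supply shown (*RnrL*, *RnrS*, *dUTPase* and *Ts*) had a median of 0.34, with 3 above 0. On the TPM scale the medians of RPA, GINS, clamp with loader and nucleotide supply were -0.35, -0.44, -0.42 and -0.08, where the median of all tested genes was -0.43.

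**Figure D3:**
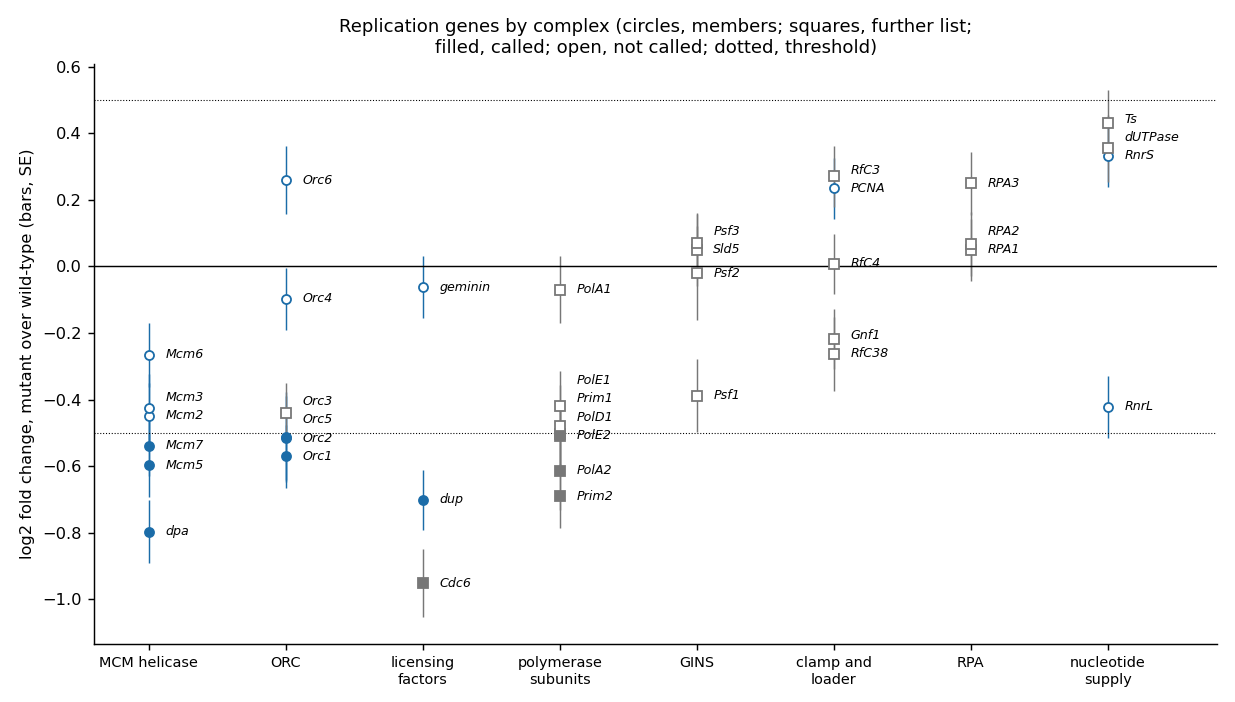
The log2 fold change, mutant over wild-type, of replication genes by complex, with standard errors as bars, circles for genes of the 52 and squares for the further list, and filled symbols for called genes. All MCM and polymerase subunits lie below 0, while with TMM factors RPA lies between 0.05 and 0.25 and 3 of 4 nucleotide supply genes lie above 0.

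Of the 14 mitosis genes, 1 was called lower (7.14%) and 0 were called higher, by edgeR and by DESeq2 alike. Of all genes, edgeR called 15.3% lower and 12.6% higher, and DESeq2 11.1% and 11.5%. At an unadjusted p below 0.05, 2 of the 14 were lower and 2 higher in edgeR's test, beside 27.5% and 28.0% of all tested genes. With TMM factors, 10 were above 0, and the group median was 0.06, so the replication median lay 0.50 below it on the log2 scale. The sign of the mitosis median was negative when library sizes alone scaled the counts (-0.13) and on the TPM scale (-0.38). The distance from the replication median was 0.50 and 0.51 there. Other scaling factors move all genes nearly alike, so with library sizes alone this distance could hardly change. The gene called was *fzr*, the Cdh1-type activator that keeps the APC/C on in G1. It had 47.8 and 48.3 CPM in wild-type and 28.5 and 28.7 CPM in the mutant. The libraries of each condition were nearly equal and the conditions far apart, with a log2 fold change of -0.75 ± 0.09 SE (adjusted p = 8.79e-05, edgeR). *fzy*, the Cdc20-type activator used in mitosis, had a value of 0.20 that did not pass the test (adjusted p = 0.101, edgeR).

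Among the mitotic kinases, *polo* and *aurB* had values of 0.06 and -0.07, and *aurA* one of 0.34 (adjusted p = 0.0170, edgeR). *pav*, a kinesin of the central spindle needed for cytokinesis, had the highest value of the mitosis genes at 0.39 (adjusted p = 0.00502, edgeR), under the fold threshold. The anillin gene *scra*, which organizes the cleavage furrow, was the most abundant of the group at 269 TPM in wild-type. It had 1035 and 1112 CPM in wild-type and 1142 and 1076 CPM in the mutant, which overlapped (0.05 ± 0.10 SE, adjusted p = 0.726, edgeR). Of the spindle checkpoint genes, *Bub1* had a value of -0.26 (adjusted p = 0.0364, edgeR), while *BubR1* and *Bub3* had values of 0.07 and 0.06. The securin gene *pim* and the separase gene *thr*, which control the parting of sister chromatids, had values of 0.16 and 0.10. *cid*, the histone variant of centromeres, and *tum*, the partner of *pav* at the central spindle, had values of 0.03 and -0.03.

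A further list of 32 mitosis genes held 0 called lower and 1 called higher, beside 15.3% and 12.6% of all tested genes. The median of the list was -0.0048. DESeq2 called 0 lower and 2 higher, beside 11.1% and 11.5% of all genes. At an unadjusted p below 0.05 in edgeR's test 4 were lower and 4 higher, beside 27.5% and 28.0%. The count rose to 4 without wild-type replicate 1. The gene called was *tacc*, which stabilizes microtubules at centrosomes. It had 304.1 and 285.3 CPM in wild-type and 567.7 and 565.0 CPM in the mutant, well apart (0.94 ± 0.09 SE, adjusted p = 2.41e-05, edgeR). With genes of both lists, the chromosomal passenger complex had a median of -0.05, the kinetochore one of 0.03, the spindle checkpoint one of 0.06 and cytokinesis one of 0.01.

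At mitotic entry, 1 of 9 genes was called lower and 0 higher, beside 15.3% and 12.6% of all tested genes. *twe* (2L, 16259414 to 16261877), a Cdc25-type phosphatase best known for its role in meiosis, was the least abundant of the 52 in wild-type. It had 12.1 and 9.19 CPM in wild-type and 6.88 and 5.76 CPM in the mutant. The conditions did not overlap, but the wild-type libraries were well apart, and the log2 fold change of -0.75 ± 0.19 SE had an adjusted p of 0.00731 in edgeR's test. Without mutant replicate 2 the call was lost (-0.62, adjusted p = 0.0835), which left 0 of 9. The other Cdc25-type phosphatase, *stg* (string), which triggers mitosis in embryos and discs, had a value of -0.46 (adjusted p = 0.00219, edgeR) and *CycB3* one of -0.39 (adjusted p = 0.00610, edgeR).

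*CycB*, the most abundant of the mitotic entry genes at 199 TPM in wild-type, had 466.3 and 524.9 CPM in wild-type and 523.4 and 502.2 CPM in the mutant. The conditions overlapped, and the difference of 0.05 ± 0.10 SE did not pass the test (adjusted p = 0.706, edgeR). *CycA*, *Cdk1* and the inhibitory kinase gene *Wee1* had values of -0.12, -0.14 and -0.02, none of which passed.

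The small Cdk-binding subunits *Cks30A* and *Cks85A* had the highest values of the 52, at 0.49 and 0.50, both just under the threshold. *Cks30A* had 53.9 and 37.1 CPM in wild-type and 64.0 and 64.3 CPM in the mutant, and its value ranged from 0.26 without wild-type replicate 2 to 0.79 without wild-type replicate 1. *Cks85A* had 34.1 and 31.9 CPM in wild-type and 42.9 and 50.3 CPM in the mutant, and was called without wild-type replicate 1 (0.55) or mutant replicate 1 (0.62). Exons of *CG8112* on the opposite strand cover 73.7% of its exonic bases, so its counts are uncertain. DESeq2 called both genes higher.

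Of the 10 genes of G1 and S-phase entry, 1 was called lower and 0 higher, beside 15.3% and 12.6% of all tested genes. *Rbf* (X, 797090 to 801479), which binds and restrains E2F, had 163.4 and 173.6 CPM in wild-type and 106.6 and 103.2 CPM in the mutant. The mutant libraries were both far below, with a log2 fold change of -0.68 ± 0.09 SE (adjusted p = 0.000185, edgeR). The second retinoblastoma gene, *Rbf2*, had a value of -0.28 that did not pass (adjusted p = 0.0513, edgeR). *E2f1*, the activating E2F, and its partner *Dp* were the most abundant of the group, at 102 and 103 TPM in wild-type. *E2f1* had 415.2 and 404.3 CPM in wild-type and 461.1 and 480.6 CPM in the mutant, higher in both but not past the test (0.20 ± 0.09 SE, adjusted p = 0.0946, edgeR). *Dp* had 239.0 and 250.3 CPM in wild-type and 248.5 and 225.8 CPM in the mutant, which overlapped. The repressive *E2f2* had a value of -0.11 with overlapping libraries.

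The kinase genes of G1 and their regulators lay mostly below 0 without being called. The pair that starts S phase, *CycE* and *Cdk2*, had values of -0.31 (adjusted p = 0.0176, edgeR) and -0.37 (adjusted p = 0.00945, edgeR), and their inhibitor *dap* had one of -0.36 (adjusted p = 0.00817, edgeR). *CycD* had a value of -0.26 (adjusted p = 0.0384, edgeR) and its partner *Cdk4* one of 0.03. Exons of *CG17267* on the opposite strand cover 43.9% of the exonic bases of *Cdk2*, so its counts too are uncertain.

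Of the 3 checkpoint kinases, 0 were called in edgeR's test and 0 by DESeq2, while 2 were lower at an unadjusted p below 0.05 (27.5% of all tested genes). Of all genes, edgeR called 15.3% lower and DESeq2 11.1%. *grp*, the Chk1 kinase, was the most abundant, with 85.5 and 101.9 CPM in wild-type and 73.4 and 79.1 CPM in the mutant. These did not overlap (-0.30 ± 0.11 SE, adjusted p = 0.0428, edgeR). *mei-41*, the ATR kinase that acts above it, had a value of -0.32 (adjusted p = 0.0306, edgeR), and *lok*, the Chk2 kinase, one of -0.02.

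**Figure D4:**
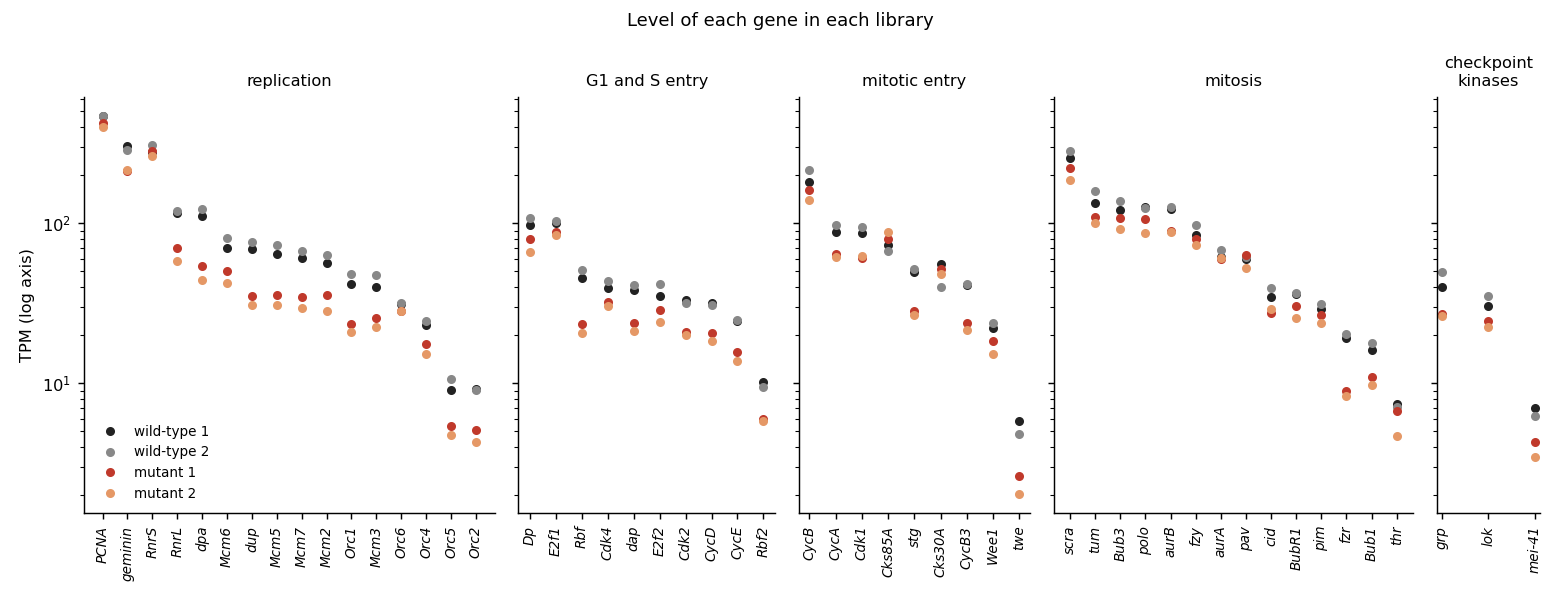
The level of each gene in each library, in TPM on a log axis, by role and in order of the wild-type mean. *PCNA* is the highest at 468 TPM and *twe* the lowest at 5.31 TPM in wild-type. TPM of all tested genes shifted by a median of -0.43 (log2) in the mutant, so red points below black ones are common to all roles.

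TPM, which allows levels of different genes to be compared within a library, ran from 5.31 (*twe*) to 468 (*PCNA*) in wild-type. It cannot be set across conditions without regard to its overall shift. The median log2 difference of all tested genes was -0.43 on the TPM scale, -0.20 when counts were scaled by library size only, and -0.0037 with TMM factors. The median effective transcript length also differed, at 1603 and 1578 bases in wild-type and 1505 and 1477 bases in the mutant. Relative to the median of all genes, the replication median was -0.43 with TMM factors, -0.43 with library sizes alone and -0.46 in TPM, and the mitosis median was 0.07, 0.07 and 0.05. Subtracting the median of all genes cancels a library-wide factor, so the values with TMM factors and with library sizes alone could hardly differ. With library sizes alone, 19 of the 52 genes were called, all lower, and of all genes 1984 were called lower and 560 higher in place of 1254 and 1031.

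Of 14 genes of the APC/C and of the SCF, the ubiquitin ligases of mitosis and of G1 and S phase, 1 was called lower. The median was -0.12, and 15.3% of all tested genes were called lower. Without wild-type replicate 1 the count was 2. This gene was *shtd*, the Apc1 scaffold, with 66.5 and 62.3 CPM in wild-type and 40.5 and 35.8 CPM in the mutant, and the conditions did not overlap (-0.75 ± 0.10 SE, adjusted p = 0.00014, edgeR). Of 9 genes of the dREAM complex, which represses E2F targets, and of phosphatases listed with it, 1 was called higher (12.6% of all genes). This was *mts*, the catalytic subunit of the phosphatase PP2A, which also acts in many other processes. It had 356.0 and 361.6 CPM in wild-type and 526.7 and 566.5 CPM in the mutant (0.61 ± 0.09 SE, adjusted p = 0.000488, edgeR), and was not called with library sizes alone.

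*Notch* lies on the X chromosome (3134870 to 3172221 in dm6). Of the 52 genes, 6 are on the X chromosome and 0 lie within 1 Mb of *Notch*, the nearest being *fzr* at 1495 kb (4667290 to 4679537). The 7 called replication genes lie on 4 chromosome arms, 3 of them on 2R. Of these, *dpa* (7496702 to 7500145) and *Orc1* (7522437 to 7525716) lie close together. Each called gene was also set against the 20 tested genes nearest to it. The median of these neighbours was above 0 for 6 of the 10, as for *Orc2* at 0.25 and *Mcm5* at 0.22. It was lowest for *dup*, at -0.29, where 8 of 20 neighbours were called lower. Since a called gene lay at -0.5 or lower, its place below these medians follows from the calling rule.

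**Figure D5:**
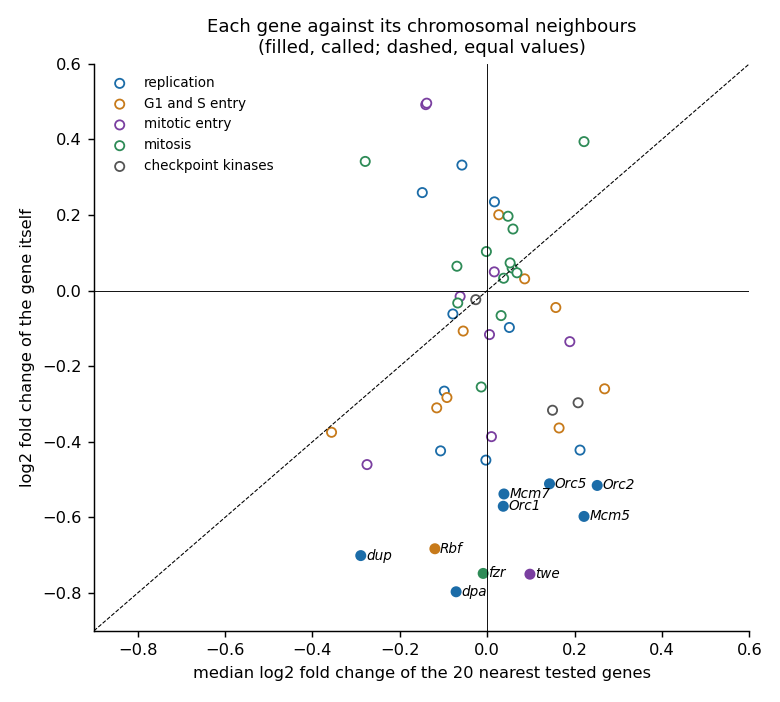
The log2 fold change of each of the 52 genes (vertical) against the median log2 fold change of its 20 nearest tested genes (horizontal), with called genes filled and named and equality as a dashed line. The neighbour medians of the 10 called genes run from -0.29 to 0.25, and 6 of them lie right of 0 on the horizontal axis.

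Of the 52 genes, 24 had 1 annotated transcript and 28 had more. The share of a gene's TPM held by a transcript shifted by at least 10 percentage points without overlap between conditions in 2 genes. In *thr*, the transcript *thr-RC* held 53.3% in wild-type and 71.1% in the mutant (means of n = 2). In *Cdk2*, *Cdk2-RC* held 21.6% and 11.2%. Opposite-strand exons of *CG17267* cover 43.9% of the exonic bases of *Cdk2*, and their part in this share was not tested. No test was run on these shares, and how many of all genes shifted as much was not counted.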

How the data were processed

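RNA of S2R+ cells was sequenced as paired-end reads in 4 libraries, which were grouped by their genotype labels. The authors quantified transcripts against dm6 with GC bias correction, and the submitters' processing notes name Salmon 0.10.2. The authors deposited for each transcript an estimated count, which is not normalized, a TPM value, which is scaled to the same sum in every library, and an effective length. GC correction and effective length can move counts and TPM differently between libraries. Of 30070 transcripts, 29850 were matched to 13909 genes through the Ensembl gene annotation, whose coordinates are those of dm6, and the 220 unmatched ones held 0.23% to 0.29% of the counts.

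Estimated counts were summed per gene, rounded and tested with edgeR 4.0.16 in R 4.3.3 (filterByExpr, TMM factors of 0.9241 to 1.0825, glmQLFit, glmQLFTest, Benjamini-Hochberg adjustment over 8182 genes). The standard error is the absolute log2 fold change over the root of the F statistic. The fit held condition only, as in the study's methods. TPM was compared as log2(TPM + 0.1). Scripts were tested on simulated data. Replicates differed beyond sampling noise, with a chi-square per degree of freedom of 33.9 in wild-type and 16.7 in the mutant. A permutation test (exact, two-sided) could not give a p under 0.333 with 2 libraries per condition and was not used.

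Alternatives were RLE factors, upper quartile factors and library sizes alone, DESeq2 1.42.0 (the tool of the authors), an offset for effective length, no count filter, a minimum of 10 counts per library, a replicate block, each library left out, the adjusted p alone, and a change of at least 1.5-fold. Values in every library are given for called genes, for the most abundant gene of each role, and for up to 3 called genes of the further lists in each direction. Other genes were named after their values were seen. The 52 genes, the further lists and the markers were chosen with earlier results of these data known. Of the replication list, 1 gene is not reported here, and the list's counts leave it out. Promoter motifs were not examined, and Hi-C and qPCR data were not used here.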

Additional observations from a re-analysis of the deposited data

How the results depend on the processing

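Of the 10 called genes under 12 other settings each, 106 of 120 values kept the call, 14 lost it and 0 reversed. The lost calls were those of *Mcm7*, *Orc1*, *Orc2*, *Orc5* and *twe*. Of the 24 genes with an adjusted p of at least 0.05, 16 took another sign in some setting and 0 were called in any. With library sizes alone the called genes numbered 19 of 52, 3 at mitotic entry, 4 of G1 and S-phase entry, 1 checkpoint kinase, 13 of the replication list, 4 of the mitosis list, 3 of the APC/C and SCF list and 0 of the dREAM list. With the adjusted p alone they numbered 28 of 52, 12 of replication, 4 of mitosis, 5 at mitotic entry, 5 of G1 and S-phase entry, 2 checkpoint kinases, and 18, 7, 3 and 2 of the lists in the same order. A change of at least 1.5-fold left 6 of 52 and 3 replication genes. Of all 8182 tested genes, 2544 were called with library sizes alone, 3984 with the adjusted p alone and 1888 at 1.5-fold or more. No filter on low counts gave 4 replication genes, 3 at mitotic entry and 2 of the mitosis list. DESeq2 gave 3 at mitotic entry and 2 of the mitosis list, and the offset for effective length gave 2 at mitotic entry. Of all genes, 2454 of 11220 were called without the filter, 1995 of 8827 by DESeq2 and 2373 of 8182 with the offset. Leaving out each library gave 6 to 12 of 52, 4 to 7 of replication, 0 to 3 at mitotic entry, 3 to 8 of the replication list, 1 to 4 of the mitosis list and 1 to 2 of the APC/C and SCF list. The cause of these shifts was not tested.

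The replicate numbers are shared by both conditions, but nothing in the labels ties a number to a batch. Deviations of same-numbered libraries correlated at 0.17 over all tested genes and at 0.41 over the 4610 genes whose mean log2 CPM reached 5. With the replicate block, 11 of 52 genes were called, among them 7 replication genes and 2 at mitotic entry, and 7 genes of the replication list. Of all 8182 tested genes, 2276 were called with the block. The depth of 16240543 estimated counts in the smallest library gave at least 132 counts for each of the 52 genes.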

Other observations

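The gap between the mutant and wild-type libraries differed between libraries for the replication genes. Wild-type library 2 was above wild-type library 1 in 11 of 16 of them, and mutant library 2 was below mutant library 1 in 12 of 16. Among the 14 mitosis genes the same counts were 10 and 8. By chromosome arm, the 52 genes had medians of -0.12 on 2L (14 genes), 0.03 on 2R (17), -0.03 on 3L (4), -0.37 on 3R (11) and -0.37 on X (6), and the medians of all tested genes on these arms ran from -0.06 to 0.04.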
